A study of Homo sapiens with 12 samples.

Results

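Tumour cells with high and with low surface CD24, sorted from SUM159 xenografts of mice fed a fasting-mimicking diet (FMD), were compared across all expressed genes. The libraries compared were the 3 CD24-high and the 3 CD24-low libraries of the FMD arm, 6 of the 12 libraries of the study, and 15461 of 26475 annotated genes passed the count filter. The other 6 libraries were the same 2 populations from mice on a control diet. SUM159 is an established human triple-negative breast cancer line with mesenchymal features. Cells were injected and grown as tumours in female NOD scid gamma mice aged 8 weeks, which lack T, B and natural killer cells but keep myeloid and stromal cells. FMD mice received the diet in cycles of 4 consecutive days a week, and the control groups received standard food. All 12 libraries came from cells sorted as CD44-positive, so that CD44 was shared and only the CD24 gate differed: FMD CD24-high, FMD CD24-low, control CD24-high and control CD24-low, with 3 libraries each. All groups rest on 1 cell line, and whether mouse reads were removed before counting is not given in the sources used here.

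CD24 is a small, heavily glycosylated surface protein and CD44 is the receptor for the matrix polymer hyaluronan. In breast cancer, cells with CD44 and little CD24 are widely taken as the fraction enriched for tumour-initiating stem-like cells, and cells with more CD24 as the more differentiated fraction. A fasting-mimicking diet is low in calories, protein and sugar, and is known to lower circulating glucose, insulin and IGF-1. The comparison asks which transcripts separate these populations when the host has been through diet cycles.

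The 6 FMD libraries separated by population before any test. The first principal component of the 6 held 72.2% of the variance and placed the CD24-low libraries at 57.8, 63.2 and 56.7 and the CD24-high libraries at -56.6, -62.2 and -58.9. The second component, with 13% of the variance, set the libraries of number 3 apart in both populations, at -39.6 and -29.2 and the others between 8.56 and 25.5. Depth differed with the population: the CD24-low libraries held 17736610 to 18579816 assigned reads and the CD24-high libraries 31903233 to 37779053, and the control libraries held 29049144 to 47587142. The 10 most abundant genes took 8.71% to 10.9% of the reads in the FMD CD24-low libraries, and 6.94% to 8.04% in the other 9. Nothing in the labels says that the 3 libraries of a group came from separate mice, so p-values measure the spread between these libraries, which may be technical.

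Most genes that differed between the populations were higher in CD24-low cells. Of 15461 genes tested, 2163 (14%) passed an adjusted p of 0.05 in edgeR's quasi-likelihood test. Of these, 1879 (12.2%) were higher in CD24-low and 284 (1.84%) were higher in CD24-high. Log2 differences are given as CD24-high minus CD24-low, so that a negative value is a higher level in CD24-low cells. The median over all genes tested was 0.06, the median of the genes higher in CD24-low was -1.52 and that of the genes higher in CD24-high was 0.55. Differences of more than 4-fold were frequent on one side: 813 genes were more than 4-fold higher in CD24-low, while 12 genes were more than 2-fold higher in CD24-high. When equal library numbers were compared within the diet (a replicate block), 4201 genes passed, 1600 higher in CD24-high and 2601 higher in CD24-low, including 284 of the 284 and 1863 of the 1879. The count of genes higher in CD24-high depended on single libraries. It was 158 without CD24-high library 1, 142 without CD24-high library 2 and 68 without CD24-low library 2. In bulk RNA, a higher share of cells of one type and more RNA per cell cannot be told apart.

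**Figure D1:**
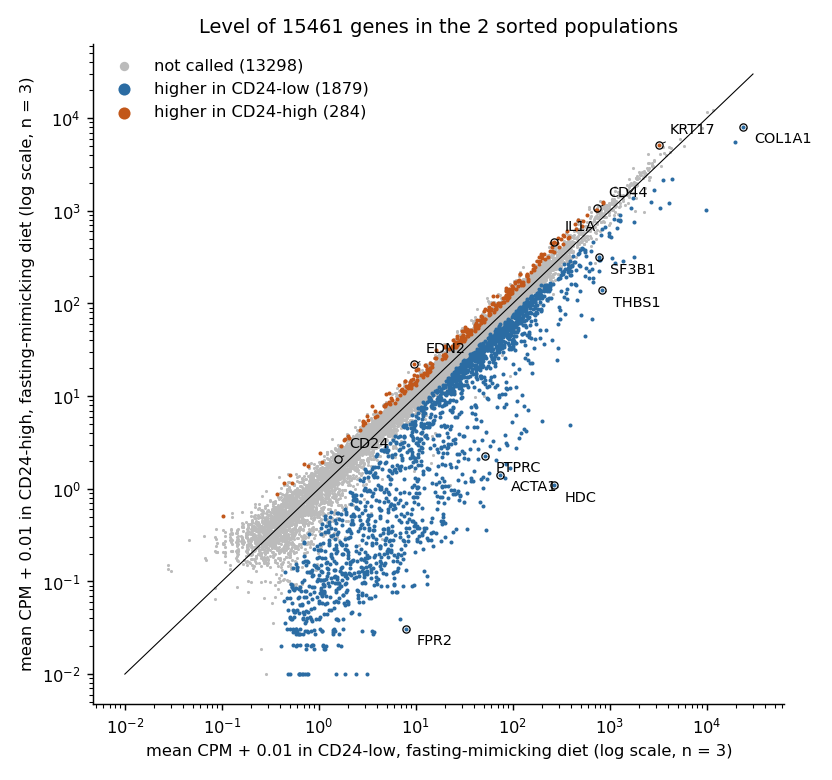
Mean level of each of 15461 genes in CD24-low (x) and CD24-high (y) cells of the FMD arm, in counts-per-million units (CPM) plus 0.01 on log axes, n = 3 libraries each. The 1879 genes higher in CD24-low spread far below the diagonal, most of all at low CD24-high levels, and the 284 genes higher in CD24-high lie close to it.

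The mRNA of the gated antigen did not separate the populations. CD24 was at 1.64, 3.27 and 1.43 CPM (on library totals scaled for composition) in CD24-high libraries 1, 2 and 3, and at 1.90, 1.83 and 1.03 CPM in CD24-low libraries 1, 2 and 3. The groups overlapped, with a log2 difference of 0.42 ± 0.43 (SE) and an adjusted edgeR p of 0.584. Without CD24-high library 2 the sign turned, at -0.024 (adjusted p = 0.981). CD44, the antigen shared by both gates, was at 1229, 901 and 1100 CPM in CD24-high and at 906, 667 and 669 CPM in CD24-low. The groups overlapped, since CD24-high library 2 lay just below CD24-low library 1, and the log2 difference of 0.53 ± 0.18 had an adjusted p of 0.0775, or 0.0116 with the replicate block. ESR1, the oestrogen receptor, was at 0.501 ± 0.309 CPM (SD, n = 3) in CD24-high and 0.577 ± 0.119 CPM in CD24-low cells, and PGR, the progesterone receptor, had 4 and 6 reads in all. VIM, the mesenchymal filament vimentin, was at 5067 ± 723 and 5774 ± 625 CPM, a difference that did not pass the test. None of the 3 tested genes of the triple-negative check passed. In RefSeq GRCh38.p14, CD24 lies at chr6:106969831-106976855 and CD44 at chr11:35139171-35232402.

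Of 15 tested sort antigens and stem cell markers, 2 were higher in CD24-high and 1 was higher in CD24-low (3 and 4 with the block), beside 1.84% and 12.2% of all genes. ITGA6, the integrin alpha-6 chain used to mark basal and stem cells, was at 389, 417 and 422 CPM in CD24-high and 247, 227 and 289 CPM in CD24-low. All 3 CD24-high values lay above all CD24-low values (log2 difference 0.69 ± 0.17, adjusted p = 0.0117, and 0.0696 without CD24-low library 2). PROCR, the endothelial protein C receptor, also a mammary stem cell marker, was 1.47-fold higher in CD24-high (adjusted p = 0.0135). That call ended without CD24-high library 1 or 3 or CD24-low library 2. LGR5, a Wnt co-receptor and stem cell marker, had 21 reads in CD24-high and 74 in CD24-low libraries together (log2 difference -2.75 ± 0.64, adjusted p = 0.00982). KLF4, a pluripotency factor, reached 61.3, 43.8 and 37.7 CPM in CD24-high and 85.1, 64.8 and 69.6 CPM in CD24-low (adjusted p = 0.0531, and 0.000484 with the replicate block). SOX2 had 2 and 1 reads and NANOG had none in either group, so neither was tested.

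Genes of leukocytes were higher in CD24-low cells as a group. PTPRC encodes CD45, the phosphatase on the surface of blood cells, and HCLS1, LCP1, CXCR2 and CD53 encode a signalling adaptor, an actin bundler, a chemokine receptor and a tetraspanin of the same lineages. Many leukocyte genes are controlled by ETS factors such as PU.1, and one form of the PU.1 site reads AGGAAGT. The promoters below are shown because each holds that motif within 120 bases before a RefSeq start of the gene. A gene can have several starts, and the first window with the motif is shown. That of PTPRC lies inside the gene body, which begins at chr1:198638713. All but LAPTM5, a lysosomal membrane protein of blood cells shown for contrast, were also picked because their genes were higher in CD24-low. They were chosen after the values were seen. Sequences are from RefSeq, build GRCh38.p14, 5′ to 3′ on the gene's strand, and capitals mark AGGAAGT or its reverse complement ACTTCCT. Their positions are chr1:198638920-198639039 (plus strand) for PTPRC, chr3:121660904-121661023 (minus) for HCLS1, chr13:46182178-46182297 (minus) for LCP1, chr2:218125908-218126027 (plus) for CXCR2, chr1:110873028-110873147 (plus) for CD53 and chr1:30757775-30757894 (minus) for LAPTM5.
PTPRC: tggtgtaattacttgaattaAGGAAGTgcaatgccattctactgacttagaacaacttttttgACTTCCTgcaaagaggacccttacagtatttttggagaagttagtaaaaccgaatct
HCLS1: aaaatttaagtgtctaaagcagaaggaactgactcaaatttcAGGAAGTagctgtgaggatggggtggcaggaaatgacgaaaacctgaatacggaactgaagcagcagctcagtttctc
LCP1: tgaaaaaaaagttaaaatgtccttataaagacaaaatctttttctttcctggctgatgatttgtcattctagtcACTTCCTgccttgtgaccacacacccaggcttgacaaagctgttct
CXCR2: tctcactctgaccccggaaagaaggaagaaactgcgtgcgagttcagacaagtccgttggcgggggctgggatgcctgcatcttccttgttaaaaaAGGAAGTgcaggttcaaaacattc
CD53: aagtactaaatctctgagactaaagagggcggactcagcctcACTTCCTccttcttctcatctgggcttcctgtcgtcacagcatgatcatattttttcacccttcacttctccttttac
LAPTM5: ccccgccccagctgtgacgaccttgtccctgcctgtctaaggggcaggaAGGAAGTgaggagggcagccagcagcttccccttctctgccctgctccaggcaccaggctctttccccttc
Searched on both strands, the motif stood in 1443 of 35116 promoter windows (4.11%) and in 635 of the 11064 tested genes that had a window (5.74%). Among 20 leukocyte genes with a window, 8 held it, and of the 14 of these higher in CD24-low, 5 did. A match is a description of the letters and not a binding site.

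PTPRC was at 2.08, 2.13 and 2.63 CPM in CD24-high libraries 1, 2 and 3 and at 59.9, 49.3 and 44.7 CPM in CD24-low libraries 1, 2 and 3. The CD24-low values were 22.4-fold higher on average, with no overlap (log2 difference -4.49 ± 0.27, adjusted p = 8e-07). HCLS1 was at 5.23, 8.46 and 9.44 CPM against 66.3, 92.0 and 87.6 CPM, a 10.6-fold difference in the same direction (adjusted p = 1.32e-06). SPI1, the gene of PU.1, was at 1.76, 1.92 and 4.34 CPM in CD24-high and 41.7, 41.1 and 48.1 CPM in CD24-low (log2 difference -4.01 ± 0.38, adjusted p = 3.21e-05). LCP1 was expressed in both populations, at 110, 106 and 111 CPM in CD24-high and 482, 458 and 447 CPM in CD24-low (adjusted p = 4.66e-06). LAPTM5 differed by -0.28 ± 0.30 on the log2 scale (adjusted p = 0.597). The gene body of PTPRC spans chr1:198638713-198757476 and that of HCLS1 chr3:121631399-121660903.

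In all, 18 of the 26 leukocyte genes tested were higher in CD24-low and none was higher in CD24-high, against 12.2% and 1.84% of all genes tested, and the list's median was -3.12 against 0.06. Of the 26, 6 passed the count filter only through the CD24-low libraries, where they are high, so the count gives no support for a direction. Another 11 of the 37 listed genes had too few reads to test. By role, 7 of 8 pan-leukocyte genes, 5 of 9 macrophage and monocyte genes, 3 of 6 neutrophil genes and 3 of 3 mast cell genes tested were higher in CD24-low. CSF1R, the receptor for the macrophage growth factor CSF1, differed by -2.87 ± 0.29. CXCR2, a neutrophil chemokine receptor, was at 0.409, 0.270 and 0.208 CPM in CD24-high and 8.31, 9.83 and 13.9 CPM in CD24-low (adjusted p = 7.33e-06). MMP8, neutrophil collagenase, differed by -6.02 ± 0.64. KIT, the stem cell factor receptor of mast cells, had no read in the 3 CD24-high libraries and 126 in the CD24-low libraries, at least 83.2-fold higher against a floor of 3 reads over the group. CD53 had 1 read against 82, a depth-scaled ratio of 163 (95% counting interval 28.4 to 6496).

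Other defining leukocyte genes did not follow. CD68, CD14, S100A8 and S100A9, which mark macrophages, monocytes and neutrophils, differed by 0.11, -0.17, 0.42 and 0.75 on the log2 scale and did not pass the test. The macrophage complement genes C1QA and C1QC and the mast cell receptor genes FCER1A and MS4A2 had no read in either group. TYROBP, an adaptor of myeloid receptors, had 1 read in CD24-high and 0 in CD24-low, and MPO, a neutrophil granule enzyme, had 2 and 2. The summed level of the 37 listed genes was 191 to 252 CPM in FMD CD24-high, 1136 to 1216 in FMD CD24-low, 161 to 230 in control CD24-high and 147 to 234 in control CD24-low libraries. Of the 37, 6 were at 0 in all FMD CD24-high libraries and 5 in all FMD CD24-low libraries. The part of these markers in the other differences was not tested.

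Of 15 fibroblast genes tested, 7 were higher in CD24-low, 1 was higher in CD24-high and 7 did not pass, beside 12.2% and 1.84% of all genes, with a median of -1.57 (9 and 1 called with the block). THBS2, a matrix thrombospondin, was at 8.72, 5.70 and 6.71 CPM in CD24-high and 147, 161 and 122 CPM in CD24-low, 20.4-fold higher with no overlap (adjusted p = 1.04e-05). COL1A1, the main chain of type I collagen, was already abundant in CD24-high cells at 6977, 8200 and 8808 CPM and reached 21998, 27637 and 21370 CPM in CD24-low (log2 difference -1.57 ± 0.21, adjusted p = 0.000196). Its partner chain COL1A2 was at 847, 1022 and 1191 CPM against 8982, 12524 and 7685 CPM (-3.25 ± 0.43, adjusted p = 0.000441). PDGFRB, the platelet-derived growth factor receptor of fibroblasts and pericytes, differed by -2.75 ± 0.65 (adjusted p = 0.0184), a call that ended with the replicate block (0.0577), without any 1 of the CD24-high libraries and without CD24-low library 2. PDPN, a surface glycoprotein of fibroblasts and lymphatic vessels that carcinoma cells can also express, was the gene higher in CD24-high. It was at 493, 451 and 412 CPM in CD24-high and 331, 276 and 246 CPM in CD24-low (0.67 ± 0.15, adjusted p = 0.00679). LUM, which encodes lumican, differed by -4.36 ± 1.30 without passing (adjusted p = 0.0562), and PDGFRA, DCN, POSTN, FBLN1, S100A4 and THY1 did not pass either. Some of these 7 genes, THY1 among them, were called higher in CD24-low with the replicate block. The 15 summed levels were 15098 to 18836 CPM in FMD CD24-high and 47961 to 70747 CPM in FMD CD24-low libraries, with the control libraries between 17236 and 36508. None of the 15 was at 0 in either FMD group, and their part in the other differences was not tested.

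Of 9 pericyte and smooth muscle genes, 7 were higher in CD24-low and 1 in CD24-high, beside 12.2% and 1.84% of all genes. Of 13 endothelial genes, 5 were higher in CD24-low and 8 did not pass, 4 of them with positive differences. DES and CNN1 among the 7, and TEK among the 5, passed the count filter only through the CD24-low libraries, so these counts give no support for a direction. ACTA2, smooth muscle actin, was at 45.3, 38.9 and 37.6 CPM in CD24-high and 216, 348 and 195 CPM in CD24-low (log2 difference -2.64 ± 0.32, adjusted p = 0.000176). RGS5, a pericyte signalling regulator, was at 1.61, 1.5 and 1.72 CPM against 13.8, 18.3 and 7.81 CPM (adjusted p = 4.11e-05). CSPG4, the NG2 proteoglycan, was the gene higher in CD24-high (0.53 ± 0.17, adjusted p = 0.049), and 7 of 12 fits that left out a library ended that call, with adjusted p up to 0.226 without CD24-high library 1. KDR, the main VEGF receptor, was at 0.535, 0.270 and 0.286 CPM in CD24-high and 9.02, 6.30 and 16.9 CPM in CD24-low (-4.88 ± 0.86, adjusted p = 0.00239). TEK, the angiopoietin receptor, was 32.6-fold higher in CD24-low (adjusted p = 0.00107). The summed endothelial level overlapped, at 81.3 to 117 CPM in CD24-high and 113 to 163 CPM in CD24-low, while the pericyte and smooth muscle sum did not, at 399 to 539 and 790 to 1208 CPM. No gene of either list was at 0 in an FMD group.

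Markers of further cell types rested on few genes, and their counts stand beside 12.2% of all genes higher in CD24-low. ACTA1, the actin of skeletal muscle, was at 1.67, 0.84 and 1.66 CPM in CD24-high and 90.9, 72.1 and 58.8 CPM in CD24-low (-5.72 ± 0.82, adjusted p = 0.00122), and 2 of the 4 skeletal muscle genes tested were higher in CD24-low. The summed muscle level was 4.03 to 7.25 CPM in CD24-high and 68.5 to 104 CPM in CD24-low, and DES (desmin), which passed the filter only through CD24-low, and ACTA1 were the called genes. LPL, lipoprotein lipase of fat and muscle, was the 1 called gene of 5 adipocyte genes, or of 2 called with the block (-5.61 ± 0.80, adjusted p = 0.000658), with sums of 19.7 to 27.8 and 36.9 to 53.8 CPM. Of 6 Schwann and neural genes, 3 were higher in CD24-low, among them the myelin gene MBP (-2.96 ± 0.57, adjusted p = 0.00284), with overlapping sums of 149 to 195 and 160 to 188 CPM. Of 2 erythroid genes tested, ALAS2, the haem synthesis enzyme of red cells, which also passed the filter only through CD24-low, was higher there (adjusted p = 0.0416), a call that 5 of the 12 fits leaving out a library ended (adjusted p up to 0.164, without CD24-low library 3). HBB, beta-globin, differed by -2.92 ± 1.16 (adjusted p = 0.145, and 3.28e-05 with the replicate block). Erythroid sums were 1.17 to 2.91 CPM in CD24-high and 7.30 to 31 CPM in CD24-low. LEP, HBA2 and S100B had no read in either FMD group, ADIPOQ, MYH1 and HBA1 had none in CD24-high and 1 in CD24-low, and MYH4 had 3 in CD24-high and none in CD24-low. Their part in the result was not tested.

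**Figure D2:**
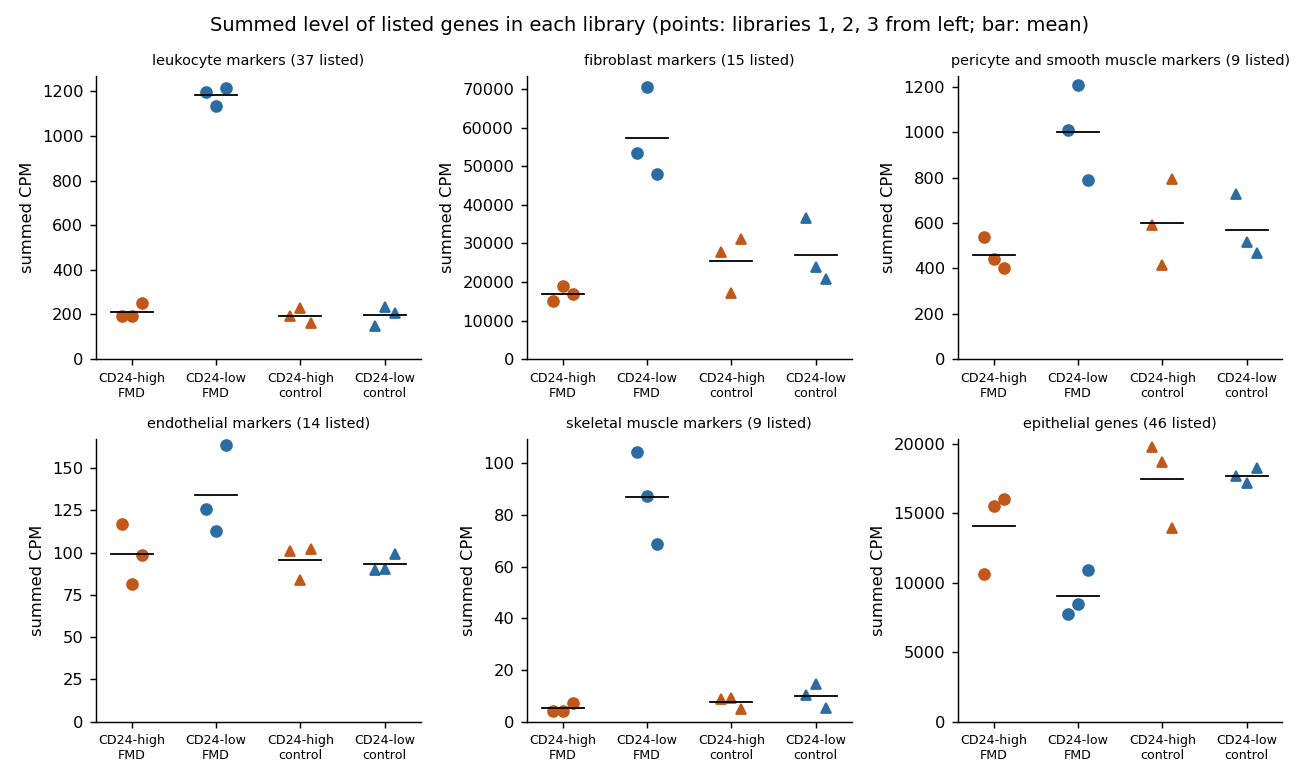
Summed CPM of 6 gene lists in each of the 12 libraries (y axes start at 0; x, population and diet; circles FMD, triangles control; bars are means of 3). Leukocyte, fibroblast, pericyte and skeletal muscle sums are higher in all 3 FMD CD24-low libraries than in all 3 FMD CD24-high libraries, while the endothelial and epithelial sums of these groups overlap.

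The 8 genes with the largest differences towards CD24-low were as follows. They were taken among called protein-coding genes with at least 5 CPM there and no overlap, without symbols of unnamed loci. HDC, which makes histamine from histidine, was at 2.64, 0.09 and 0.494 CPM in CD24-high and 284, 249 and 269 CPM in CD24-low (-7.99 ± 1.38, adjusted p = 0.00365). FPR2, a formyl peptide receptor of phagocytes, had 2 reads in CD24-high and 411 in CD24-low, a depth-scaled ratio of 407 (95% counting interval 112 to 3374, adjusted p = 2.52e-06). BEND4, a gene of a family with DNA-binding domains, had 3 reads against 359, a ratio of 237 (80.5 to 1155). IRG1, the itaconate-producing enzyme of activated macrophages now named ACOD1, was at 0.724, 0.03 and 0.286 CPM in CD24-high and 69.7, 45.3 and 42.9 CPM in CD24-low (adjusted p = 0.00223). No overlap was part of the rule, so the separation of the libraries in the 8 genes gives no support for a direction. FPR2 and DES passed the count filter only through the CD24-low libraries. So did BEND4 and SLC28A2, which were at most 0.172 and 0.336 CPM in any library outside FMD CD24-low. GDA, guanine deaminase, was at 0.567, 0.06 and 0.442 CPM against 33.4, 30.7 and 38 CPM (adjusted p = 8.15e-05). HDC lies at chr15:50241947-50265726. SFRP4, a secreted Wnt inhibitor, DES, the muscle filament desmin, and SLC28A2, a nucleoside transporter, differed by -7.30 ± 1.35, -6.79 ± 0.96 and -6.90 ± 0.63. In the control arm HDC was at 11.9 CPM in CD24-low library 2 and at most 2.65 CPM in the other 5 libraries. That control library held the highest control level of 7 of the 8 genes, BEND4 being the other, and also of PLIN2 (2.18 CPM) and ACTA1 (5.88 CPM). All 8 kept their call in each of the 12 fits that left out a library.

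The genes higher in CD24-high cells differed less, and fewer of them kept their call. The largest difference among protein-coding genes with at least 5 CPM and no overlap, without symbols of unnamed loci, was 2.28-fold. EDN2, a vasoconstrictor peptide of the endothelin family, was at 17.9, 28.6 and 19.7 CPM in CD24-high and 9.32, 10.4 and 9.28 CPM in CD24-low (1.19 ± 0.23, adjusted p = 0.00312). SLC35F3, a putative thiamine transporter, was at 11.8, 13.7 and 14 CPM against 6.94, 5.77 and 7.16 CPM (0.99 ± 0.19, adjusted p = 0.00244). CNTNAP3, a contactin-associated cell adhesion protein, was at 10.8, 9.54 and 12 CPM against 6.53, 3.77 and 5.70 CPM (1.02 ± 0.22, adjusted p = 0.00559). No overlap was required by the rule here too. These 3 genes kept their call whichever of the 12 libraries was left out. NGFR, the low-affinity neurotrophin receptor, was at 38.1, 30.9 and 26.1 CPM in CD24-high and 19.9, 13.1 and 15.5 CPM in CD24-low (adjusted p = 0.0267). SHISA2, an inhibitor of Wnt and FGF receptor maturation, differed by 1.12 ± 0.31 (adjusted p = 0.0245). DOK7, an adaptor of the kinase MuSK, differed by 1.12 ± 0.30 (adjusted p = 0.0233), EGR4, an early growth response factor, by 0.97 ± 0.28 (adjusted p = 0.0363), and SLC10A6, a steroid sulfate transporter, by 0.94 ± 0.24 (adjusted p = 0.0168). The calls of these last 5 genes ended without CD24-low library 2 (adjusted p = 0.12 for NGFR, 0.118 for SHISA2 and 0.107 for DOK7), and each of the 5 also lost its call without CD24-high library 1.

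Of 33 epithelial genes tested, 7 were higher in CD24-high and 1 in CD24-low, beside 1.84% and 12.2% of all genes. The median was 0.49 against 0.06 over all genes, 30 of the 33 had positive differences, and 21 were higher in CD24-high with the replicate block. KRT17, a basal keratin, was at 3802, 6511 and 5207 CPM in CD24-high and 2894, 3486 and 3321 CPM in CD24-low (0.68 ± 0.18, adjusted p = 0.024). KRT18, a keratin of simple epithelia, was at 425, 385 and 409 CPM against 292, 273 and 333 CPM (adjusted p = 0.0213). JUP, plakoglobin of desmosomes and adherens junctions, was at 274, 301 and 325 CPM against 210, 199 and 243 CPM (0.47 ± 0.12, adjusted p = 0.014). None of these 3 genes overlapped, and all 3 calls ended without CD24-low library 1 or CD24-low library 2, with adjusted p up to 0.126. DSG2, a desmosomal cadherin (0.50, adjusted p = 0.0265), SFN, the epithelial 14-3-3 sigma protein (0.77, adjusted p = 0.0277), F11R, a tight junction adhesion molecule (0.55, adjusted p = 0.0414), and CLDN1, claudin-1 (0.48, adjusted p = 0.0435), were the other called genes. Each of these 4 also lost its call without CD24-low library 2 and without CD24-high library 2. The basal keratins KRT5 and KRT14 differed by 0.72 and 0.67 with overlapping libraries (adjusted p = 0.161 and 0.166, or 0.00646 and 0.00997 with the replicate block). CDH1, E-cadherin, averaged 0.718 CPM in CD24-high and 0.72 CPM in CD24-low. KRT19, another keratin, had 10 reads in CD24-high and 36 in CD24-low (adjusted p = 0.00305), and it passed the filter only through the CD24-low libraries.

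Of 22 mesenchymal genes, 9 were higher in CD24-low, beside 12.2% of all genes, and none in CD24-high (13 and 2 with the block). One of the 9, CNN1, passed the filter only through the CD24-low libraries. ZEB2, a repressor of epithelial genes, was at 76.4, 59.9 and 65.4 CPM in CD24-high and 364, 318 and 234 CPM in CD24-low (-2.18 ± 0.28, adjusted p = 0.00024). CDH11, a cadherin of mesenchymal cells, was at 2.93, 1.65 and 1.59 CPM against 66.9, 68.2 and 67.2 CPM (adjusted p = 0.00287). TWIST1 and PRRX1, transcription factors of mesenchymal development, differed by -1.15 ± 0.21 and -2.0 ± 0.31 (adjusted p = 0.00171 and 0.000975). ZEB1, the partner of ZEB2, was at 24.0, 23.6 and 21 CPM in CD24-high and 30.4, 30.9 and 28.2 CPM in CD24-low, a log2 difference of -0.38 ± 0.12 (adjusted p = 0.0543, and 0.0105 with the replicate block). SNAI2, another factor of this class, had a difference of 0.00, with overlapping libraries. The fibroblast marker sum was higher in the same 3 libraries, and its part in these differences was not tested.

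The matrix genes held the most called members of any list by count, but not by share, since 18 of 26 leukocyte genes were higher in CD24-low. Of 54 tested, 25 were higher in CD24-low and 1 in CD24-high (33 and 3 with the replicate block), beside 12.2% and 1.84% of all genes. The median was -0.87. By role, 9 of 15 collagens, 9 of 18 glycoproteins and proteoglycans, and 7 of 21 cross-linking and remodelling genes were higher in CD24-low. THBS1, thrombospondin-1, a matrix protein that activates latent TGF-beta, was at 162, 140 and 114 CPM in CD24-high and 1061, 737 and 712 CPM in CD24-low (-2.59 ± 0.22, adjusted p = 9.22e-06). LOX, the collagen cross-linking lysyl oxidase, was at 27.5, 21 and 20.6 CPM against 197, 142 and 111 CPM (-2.71 ± 0.29, adjusted p = 7.96e-05). FBN1, fibrillin-1, and COL12A1, a fibril-associated collagen, differed by -1.85 ± 0.31 and -2.07 ± 0.32. In all 4 genes the lowest CD24-low library exceeded the highest CD24-high library. P4HA1, a collagen prolyl hydroxylase, and MMP2, gelatinase A, differed by -1.18 ± 0.20 and -0.67 ± 0.12 (adjusted p = 0.00123 and 0.00153). PLAU, urokinase, was higher in CD24-high, at 646, 1093 and 627 CPM against 457, 546 and 407 CPM (0.75 ± 0.21, adjusted p = 0.0299). That call ended without CD24-high library 2 (adjusted p = 0.132) and without CD24-low library 1 or 3. FN1, fibronectin, did not pass, with a difference of 0.08 and overlapping libraries, and TNC, tenascin-C, differed by 0.47 (adjusted p = 0.278, and 0.00214 with the block).

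In the Notch pathway 5 of 15 genes were higher in CD24-low, among them DLL4, which passed the filter only through CD24-low, and 1 in CD24-high (6 and 2 with the block), beside 12.2% and 1.84% of all genes. RBPJ, the DNA-binding partner of cleaved Notch, was at 56.0, 45.2 and 46.2 CPM in CD24-high and 125, 110 and 97.3 CPM in CD24-low (-1.17 ± 0.16, adjusted p = 0.00024). HEY1, a Notch target, differed by -1.62 ± 0.26 (adjusted p = 0.000986). NOTCH3, a receptor of pericytes and tumour cells, differed by -1.72 (adjusted p = 0.0369). Its call was lost with the replicate block (0.107) and in 7 of 12 fits that left out a library (up to 0.133, without CD24-high library 3). JAG2, a Notch ligand, was higher in CD24-high (0.68 ± 0.20, adjusted p = 0.0412), and 7 of 12 fits that left out a library ended the call (up to 0.172, without CD24-low library 2).

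In the Wnt pathway 7 of 16 genes were higher in CD24-low, beside 12.2% of all genes, and none in CD24-high (10 and 3 with the block). WNT5A, a ligand of the beta-catenin-independent branch, was at 18.4, 14.4 and 14.2 CPM in CD24-high and 46.9, 62.6 and 31.3 CPM in CD24-low (-1.59 ± 0.27, adjusted p = 0.0014). FZD2, a Wnt receptor, differed by -0.97 ± 0.17 (adjusted p = 0.00124), and both genes kept their call whichever library was left out. AXIN2, a negative regulator and target of the beta-catenin branch, differed by -1.43 ± 0.35 (adjusted p = 0.0158, lost without CD24-high library 2 or 3, up to 0.0628). Of 26 TGF-beta genes, 5 were higher in CD24-low, beside 12.2% of all genes (12 with the block, and 1 higher in CD24-high). The ligand genes TGFB2 and TGFB3 differed by -1.22 ± 0.26 and -1.51 ± 0.26 (adjusted p = 0.00504 and 0.00148). SMAD4, the shared signal carrier of the pathway, differed by -0.84 ± 0.13 (adjusted p = 0.000468). Of 15 EGF receptor genes, 1 was higher in CD24-low, beside 12.2% of all genes (2 with the block, and 4 higher in CD24-high). It was the inhibitor SPRED1 (-0.51, adjusted p = 0.0225), and 4 of 12 fits that left out a library ended that call (up to 0.112, without CD24-high library 2).

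In the insulin and IGF list, 6 of 32 genes were higher in CD24-low and none in CD24-high (11 and 3 with the block), beside 12.2% and 1.84% of all genes, and the median was -0.16. IGF1, the growth factor itself, had 20 reads in the CD24-high and 336 in the CD24-low libraries (log2 difference -5.05 ± 0.54, adjusted p = 3.71e-05). IGFBP7, a secreted IGF-binding protein, was at 174, 133 and 205 CPM in CD24-high and 710, 708 and 588 CPM in CD24-low (-1.97 ± 0.19, adjusted p = 1.66e-05). IGF1R, the IGF receptor, was at 89.7, 99.8 and 68.9 CPM against 208, 202 and 131 CPM (-1.06 ± 0.19, adjusted p = 0.00135). For all 3 genes the groups did not overlap. RPS6KB1, the S6 kinase, differed by -0.71 ± 0.14 (adjusted p = 0.00396). PIK3CA, the catalytic subunit of PI3 kinase, differed by -0.56 ± 0.13 (adjusted p = 0.0075).

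Of 26 genes of cyclic AMP signalling and protein kinase A, 4 were higher in CD24-low and 1 in CD24-high (6 and 4 with the block), beside 12.2% and 1.84% of all genes. CRTC2, a coactivator of CREB that is active in fasting metabolism, was at 49.3, 50.4 and 42.2 CPM in CD24-high and 132, 137 and 109 CPM in CD24-low (-1.41 ± 0.15, adjusted p = 2.96e-05). PDE4B, a phosphodiesterase that degrades cyclic AMP, was at 12.7, 9.36 and 9.20 CPM against 82.0, 68.8 and 64.5 CPM (-2.79 ± 0.25, adjusted p = 1.64e-05). Both sets of CD24-low values stood well clear of the CD24-high values. CREB1 itself differed by -0.54 ± 0.11 (adjusted p = 0.00485). PRKAR2B, a regulatory subunit of protein kinase A, differed by -4.84 ± 0.93 with 12 and 180 reads and passed the filter only through the CD24-low libraries, while PRKAR1B, another regulatory subunit, was higher in CD24-high (0.63 ± 0.17, adjusted p = 0.0267). The PRKAR1B call ended without CD24-low library 1 or 2 or CD24-high library 1 or 3 (up to 0.131).

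Among metabolic genes, PLIN2, the coat protein of lipid droplets and a hypoxia-induced gene, was at 1.51, 0.72 and 1.69 CPM in CD24-high and 87.8, 102 and 59.6 CPM in CD24-low (-5.98 ± 0.62, adjusted p = 0.000121). KDM3A, a histone demethylase induced by hypoxia, was at 75.4, 73.0 and 84.6 CPM against 167, 175 and 155 CPM (-1.09 ± 0.17, adjusted p = 0.000676). They were among 5 of 26 hypoxia genes higher in CD24-low, beside 12.2% of all genes, with none higher in CD24-high and a list median of -0.08 (7 and 4 with the block). PGK1 (phosphoglycerate kinase 1) was the 1 glycolysis gene of 20 that passed, at 608, 483 and 642 CPM in CD24-high and 1018, 1061 and 841 CPM in CD24-low (-0.75 ± 0.16, adjusted p = 0.00436), and with the block 3 glycolysis genes were higher in CD24-high and 1 in CD24-low. ACADL, a long-chain acyl-CoA dehydrogenase, was the 1 called gene of 20 in fatty acid oxidation, with 14 and 161 reads and a difference of -4.47 ± 0.78. It passed the count filter only through the CD24-low libraries, so the count of this list gives no support for a direction. With the replicate block, 8 fatty acid oxidation genes were higher in CD24-high and 2 in CD24-low. None of 25 cholesterol synthesis genes passed edgeR's test, although 23 had positive differences, and 9 were higher in CD24-high with the block. The sterol desaturase SC5D had the smallest p of these (0.39 on the log2 scale, adjusted p = 0.055, and 0.02 with the block). None of 34 respiratory chain genes passed either (4 higher in CD24-high and 3 in CD24-low with the block), and UQCRC2, a complex III core protein, had the smallest p (0.23, adjusted p = 0.118, and 0.0379 with the block).

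Of 35 genes of G1 and S phase, 30 had positive differences and 1 passed, beside 14% of all genes (5 higher in CD24-high and 1 in CD24-low with the block). It was CCND2 (cyclin D2), which was higher in CD24-low (-1.37 ± 0.25, adjusted p = 0.00207). The CCND2 call ended when reads of either strand were counted (adjusted p = 0.22). None of 33 G2 and M phase genes passed (1 with the block), with 32 positive differences, a median of 0.31 and libraries that overlapped for all 33. CDK1, the mitotic kinase, differed by 0.57 (adjusted p = 0.2). None of 57 ribosomal protein genes passed (median 0.19, with 49 positive differences), and 18 were higher in CD24-high with the block. RPL3, a large subunit protein, had a difference of 0.32 (adjusted p = 0.0712, and 0.00828 with the block). None of 20 ribosome biogenesis genes passed (2 higher in CD24-high with the block), with a median of 0.22.

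Of 24 NF-kB and cytokine genes, 1 was higher in CD24-high, beside 1.84% of all genes, the median was 0.43, and with the block 10 were higher in CD24-high and 1 in CD24-low. IL1A, interleukin-1 alpha, was at 425, 604 and 357 CPM in CD24-high and 275, 331 and 195 CPM in CD24-low (0.79 ± 0.20, adjusted p = 0.0186). No library overlapped, and the call ended without CD24-high library 2 (0.079) or CD24-low library 3. CXCL8, the neutrophil chemokine interleukin-8, was at 4305, 4484 and 3454 CPM against 2714, 2766 and 1888 CPM. Its libraries did not overlap, and the difference of 0.73 had an adjusted p of 0.208, or 0.00492 with the block. LIF, a cytokine of the interleukin-6 family, differed by 0.62 (adjusted p = 0.0817, and 0.00206 with the block). Of 22 interferon response genes, none was higher in CD24-high (11 with the block, with a median of 0.35), and RSAD2, the antiviral protein viperin, was higher in CD24-low (-2.67 ± 0.54, adjusted p = 0.00452). Of 16 antigen presentation genes (6 higher in CD24-high and 1 in CD24-low with the block), TAP1, the peptide transporter, was higher in CD24-high (0.34 ± 0.10, adjusted p = 0.0388), and its call ended in 7 of 12 fits that left out a library (up to 0.161, without CD24-low library 2). HLA-DRB1, a class II chain, was higher in CD24-low (adjusted p = 0.00125), as were 12.2% of all genes tested.

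HSPA5, the chaperone BiP of the endoplasmic reticulum, was at 1485, 2092 and 1479 CPM in CD24-high and 2524, 3057 and 2966 CPM in CD24-low (-0.76 ± 0.18, adjusted p = 0.0123). Its call was lost without CD24-high library 3 (0.0549) or CD24-low library 2. CHAC1, a glutathione-degrading target of ATF4, differed by -1.45 ± 0.32 (adjusted p = 0.00646). These were the 2 called genes of 25 in the amino acid and unfolded protein response (6 lower in CD24-high and 1 higher with the block). Over all genes tested, 12.2% were higher in CD24-low and 1.84% in CD24-high, and these shares stand beside the list counts here. Among 13 heat shock genes the co-chaperone DNAJA1 was higher in CD24-low (-0.59, adjusted p = 0.0232; 2 genes with the block), and among 15 p53 targets the oxidoreductase TP53I3 was higher in CD24-high (0.47, adjusted p = 0.0185), with 5 p53 targets higher in CD24-high and 2 in CD24-low with the block. Both calls ended without CD24-low library 1 or 2 or CD24-high library 3 (up to 0.118 and 0.081). Of 21 lysosome and autophagy genes, WIPI1, an autophagosome protein, differed by -1.03 ± 0.19 (adjusted p = 0.00164) and CTSA, a lysosomal carboxypeptidase, by -0.44 (adjusted p = 0.0134, up to 0.0697 without CD24-low library 2), and with the block 4 of the 21 were higher in CD24-high and 3 in CD24-low. None of 19 immediate early genes passed, and with the block 4 were higher in CD24-high and 1 in CD24-low.

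Among 18 splicing factors, 5 were higher in CD24-low (9 with the block) and none in CD24-high, beside 12.2% and 1.84% of all genes. SF3B1, the core branch-point factor of the spliceosome, was at 311, 331 and 304 CPM in CD24-high and 759, 797 and 772 CPM in CD24-low. The values were tight within each group and 2.46-fold apart (-1.30 ± 0.12, adjusted p = 1.21e-05). SF3B1 lies at chr2:197389784-197435093. SRSF5, a serine- and arginine-rich splicing factor, was at 188, 251 and 316 CPM against 384, 455 and 626 CPM (-0.96 ± 0.20, adjusted p = 0.00516). HNRNPK, HNRNPU and HNRNPH1, RNA-binding proteins of nuclear ribonucleoprotein particles, differed by -0.41, -0.40 and -0.38, and 4, 9 and 10 of the 12 fits that left out a library ended their calls. Of 11 replication-dependent histones, whose transcripts lack a poly(A) tail, 2 were higher in CD24-low, beside 12.2% of all genes. They were HIST2H2AC (-1.93 ± 0.44, adjusted p = 0.00879) and HIST1H1E (-1.90 ± 0.58, adjusted p = 0.0464). The HIST1H1E call ended in 8 of 12 fits that left out a library (up to 0.149, without CD24-high library 2). The libraries were poly(A)-selected, so the histone counts may not follow the level of these transcripts.

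**Figure D3:**
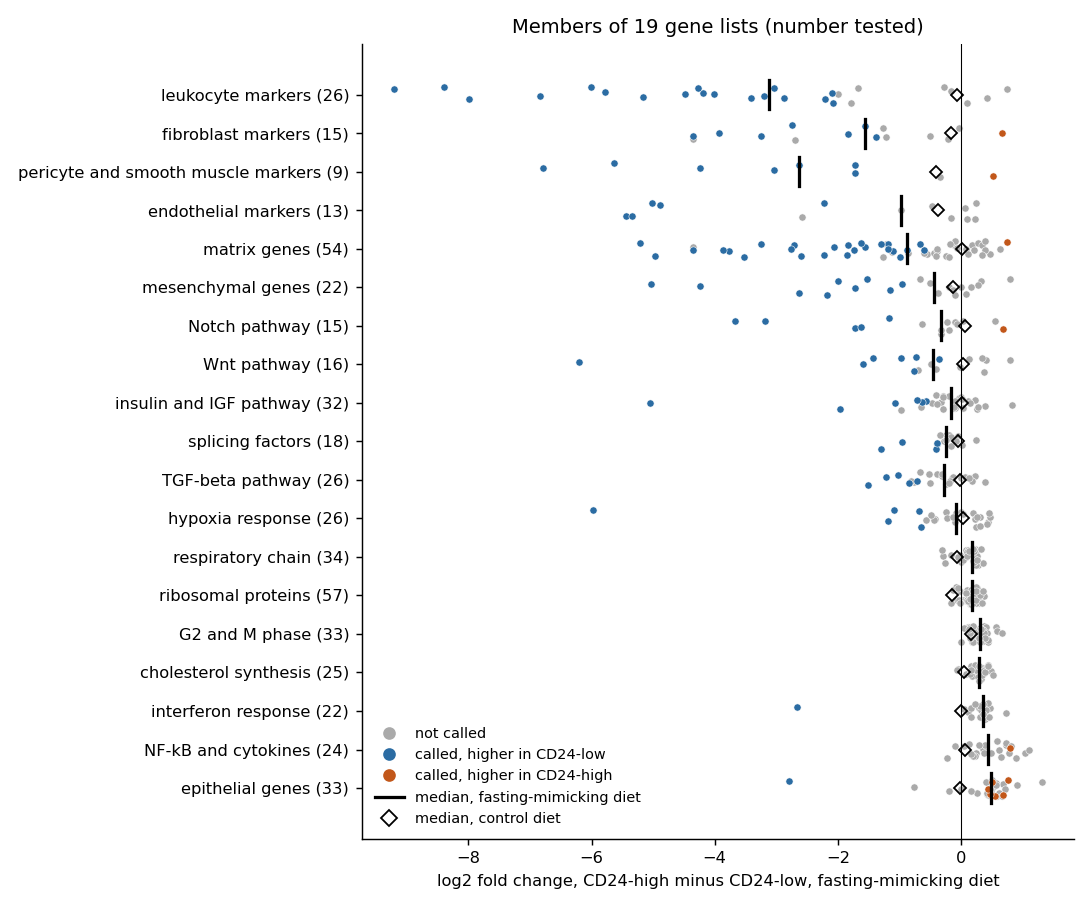
Log2 difference (x, CD24-high minus CD24-low, FMD arm) of each tested member of 19 gene lists (y, number tested in brackets), with called genes coloured. Black bars are list medians and open diamonds the medians of the same genes on the control diet; the leukocyte bar stands at -3.12, the matrix bar at -0.87 and the epithelial bar at 0.49.

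**Figure D4:**
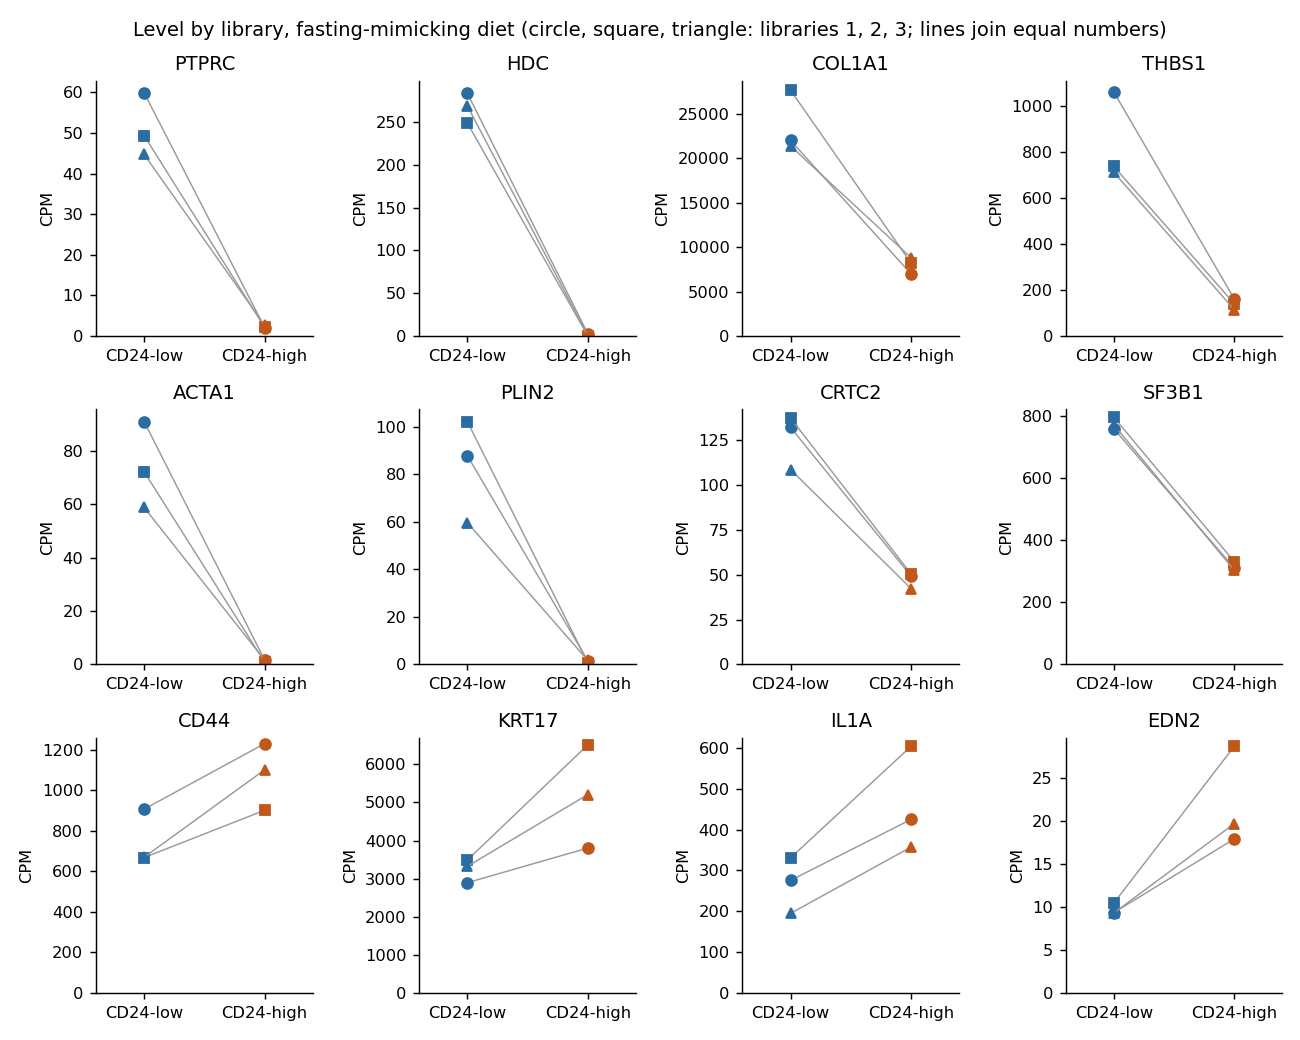
Level of 12 genes in CPM (y, from 0) in the 6 FMD libraries, with lines joining libraries of equal number. PTPRC, HDC, COL1A1, THBS1, ACTA1, PLIN2, CRTC2 and SF3B1 are higher in every CD24-low library, KRT17, IL1A and EDN2 are higher in every CD24-high library, and CD44 overlaps.

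The calls were also counted by the level of the gene in the 6 control libraries, which are in neither arm of the contrast. This was done after the values were seen, over the 14686 genes that pass the count filter through the control libraries alone. Of 1638 genes under 1 CPM there, 215 (13.1%) were higher in FMD CD24-low and 1 (0.0611%) was higher in CD24-high. Of 3813 genes between 1 and 10 CPM, 10.5% were higher in CD24-low and 1.05% in CD24-high, and of 7605 genes between 10 and 100 CPM, 9.53% and 1.97%. Of 1630 genes at 100 CPM or more, 162 (9.94%) were higher in CD24-low and 92 (5.64%) in CD24-high. The share called higher in CD24-low thus ranged from 9.53% to 13.1% over the classes. The median difference of the genes higher in CD24-low was -3.37 in the lowest class and -0.65 in the highest. Another 512 of the 15461 genes passed the filter only through the FMD CD24-low libraries, and 332 of those were called. Among the other 14949 genes, 1547 (10.3%) were higher in CD24-low and 284 in CD24-high.

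**Figure D5:**
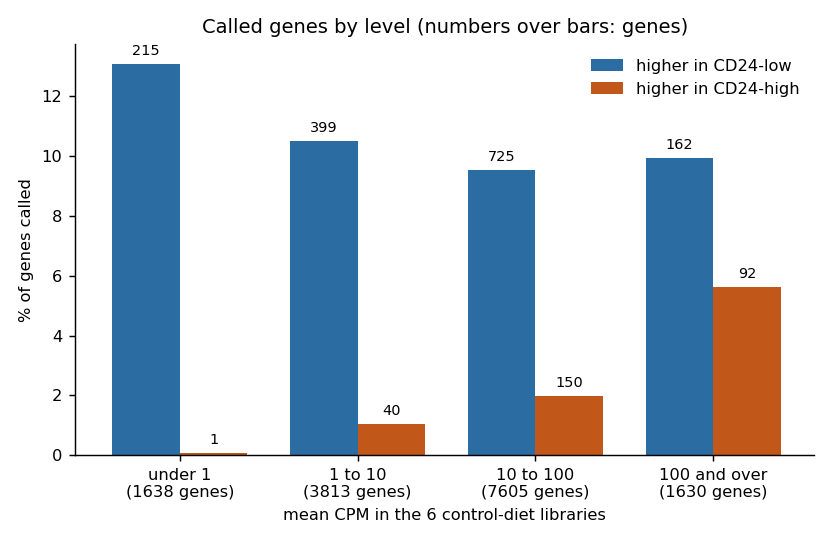
Share of genes called (y, percent, from 0) in 4 classes of mean CPM over the 6 control libraries (x), for genes that pass the count filter through the control libraries alone; numbers over bars are genes. The share higher in CD24-low lies between 9.53% and 13.1% in all 4 classes, and the share higher in CD24-high goes from 0.0611% in the lowest to 5.64% in the highest class.

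On the control diet the same sorted populations did not separate. None of 15461 genes passed (0%) by edgeR, 91 had an unadjusted p under 0.05 (0.589% of genes), and DESeq2 also called none, with 126 under an unadjusted 0.05. With the replicate block edgeR called none either, and 518 genes had an unadjusted p under 0.05. Unchanged genes alone would give a share near 0.05, so the unpaired test was cautious here. The middle 50% of log2 differences ran from -0.10 to 0.10 on the control diet and from -0.24 to 0.25 in the FMD arm. The difference between the diets was tested as the interaction of diet and population. It passed for 638 genes (4.13%), 630 with a negative and 8 with a positive term, and all 638 were among the 2163 genes called in the FMD arm (29.5% of them). The term contains the FMD difference itself, so this overlap gives no separate support. PTPRC had an interaction of -4.61 ± 0.37 (adjusted p = 3.84e-05), and its control means were 3.19 ± 1.31 CPM (SD, n = 3) in CD24-high and 2.94 ± 0.369 CPM in CD24-low. SF3B1 had -1.25 ± 0.17 (adjusted p = 0.000977) and control means of 294 ± 25.8 and 304 ± 38.8 CPM. COL1A1 had -1.55 ± 0.29 (adjusted p = 0.00876), and its control means of 12663 ± 3218 and 12816 ± 2973 CPM lay between the FMD groups. SLC35F3 was a positive case, at 1.01 ± 0.26 (adjusted p = 0.044), with control means of 14.3 ± 0.97 and 14.5 ± 4.12 CPM. For EDN2, KRT17 and IL1A the interaction did not pass (adjusted p = 0.0621, 0.201 and 0.226), and it passed with the replicate block (0.0036, 0.0302 and 0.00281). Of the 80 genes named by rule, 24 had an interaction call, 30 more gained one with the block, and ACTA2 lost its call (0.0768). The interaction count was 380 without FMD CD24-low library 2, 412 without FMD CD24-low library 1, 403 without FMD CD24-high library 2 and 409 without control CD24-low library 3, and 1702 with the replicate block.

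In a stretch of the short arm of chromosome 9, 10 of 26 tested genes were higher in CD24-low, beside 12.2% of all genes. MOB3B was the 1 gene higher in CD24-high (0.51, adjusted p = 0.0326), beside 1.84% of all genes. TEK passed the count filter only through the CD24-low libraries. So did MLLT3 and MTAP, which were at most 0.47 and 0.638 CPM in any library outside FMD CD24-low. The count therefore gives no support for a direction. PLIN2 (chr9:19108388-19127492), BNC2 (chr9:16409503-16870670), ADAMTSL1 (chr9:17906633-18910950), MLLT3 (chr9:20341669-20622499) and TEK (chr9:27109225-27230174) differed by -5.98, -4.02, -4.58, -4.12 and -5.02 on the log2 scale. MTAP, methylthioadenosine phosphorylase, had 14 reads in CD24-high and 110 in CD24-low libraries, and CDKN2A next to it had 1 and 0. HAUS6 and DENND4C, annotated on either side of PLIN2, differed by 0.25 and 0.07 and were not called, while RRAGA, beyond HAUS6, differed by -1.22 and was called. KLHL9, C9orf72 and PLAA were the other called genes. These genes were chosen after their values were seen, and positions are those of RefSeq GRCh38.p14. Among copies of mitochondrial 16S RNA in the nucleus, MTRNR2L6, MTRNR2L9 and MTRNR2L10 stood at 8.84 to 25.8 CPM in CD24-low and at most 0.441 CPM in CD24-high. They were picked for their values. MTRNR2L2 was at only 0.38 to 0.53 CPM in CD24-low, and MTRNR2L1, MTRNR2L3, MTRNR2L4, MTRNR2L5, MTRNR2L7 and MTRNR2L8 had too few reads to test. Counts of all these copies are uncertain because reads of near-identical copies can be split.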

How the data were processed

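RNA was measured by stranded, poly(A)-selected sequencing of sorted cells. The deposited tables hold whole-number read counts per gene as the authors' aligner wrote them, with STAR and the build hg38 per the submitters' processing notes. Versions, annotation and any removal of mouse reads are not given in the sources used here. Column 4 (reverse strand) was used, and reads on the opposite strand made up 1.59% to 1.75%. Rows that name no gene were left out of the totals. Of 26475 symbols, 25304 matched RefSeq, 1555 of them by an older symbol.

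Genes were filtered by group (edgeR's default), scaled by TMM and tested with edgeR 4.0.16 (quasi-likelihood, R 4.3.3, limma 3.58.1) over all 12 libraries in 4 groups, with Benjamini-Hochberg adjustment over all 15461 genes tested and a threshold of 0.05. DESeq2 1.42.0 was an alternative. The residual degrees of freedom were 8 (4 with the block), and the biological coefficient of variation was 0.19 (0.117 with the block). Levels are CPM on scaled totals. Count ratios for genes with 1 to 3 reads in a group carry exact 95% intervals that cover counting error only, and a group at 0 was given a floor of 3 reads. The steps were tested on simulated data.

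Libraries of equal number deviated together in the FMD arm (correlations of their deviations 0.444, 0.285 and 0.485), so a block that pairs them was fitted as an alternative. The main fit is unpaired, as are all p-values given without mention of the block. That pairing comes from the data, since the labels do not say what a number marks. In the control arm, which the block also pairs, the correlations were 0.445, 0.522 and 0.0373. Values with the replicate block are given for many, but not all, of the named genes whose call in the FMD arm it changes. Block counts are given where a list's count moves by more than 1.5 times.

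Named genes were CD24 and CD44, the 8 largest differences in each direction among called genes with at least 5 CPM and no overlap, up to 2 called members per direction of each of 38 lists, and the member with the smallest p where a list of 8 or more had none. Genes that are not protein-coding and symbols of unnamed loci (such as LOC, LINC or orf) were left out of the 8 largest. Further members were named after their values were seen. The lists, and the comparison itself, were chosen with earlier results of these data known. Alternatives were the strand, scaling, filter, tool, libraries in the fit, thinning to 17736610 reads, a minimum fold of 1.5, the block and leaving out libraries.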

Additional observations from a re-analysis of the deposited data

Results flagged for a closer look

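For 24 named genes the difference between CD24-high and CD24-low cells itself differed between the diets, by the interaction term of edgeR's fit with an adjusted p under 0.05 over all genes. These genes were named from their difference in the FMD arm, which is part of the term. The number and sign of the terms therefore give no separate support for a direction. Terms are log2 values, and a negative term means that CD24-high minus CD24-low was lower on the fasting-mimicking diet than on the control diet. The 1 positive term was that of SLC35F3, at 1.01. Among leukocyte and highly specific genes the terms were -8.34 for BEND4, -5.72 for GDA, -4.61 for PTPRC and -3.33 for HCLS1. Among genes of matrix, vessels and mesenchyme they were -3.66 for THBS2, -2.64 for THBS1, -1.55 for COL1A1, -2.30 for RGS5, -2.23 for ACTA2, -2.08 for ZEB2 and -0.73 for SMAD4, of which that of ACTA2 lost its call with the replicate block (adjusted p = 0.0768). Among hypoxia, glycolysis, IGF and cyclic AMP genes they were -4.90 for PLIN2, -1.10 for KDM3A, -0.86 for PGK1, -1.84 for IGFBP7, -4.37 for IGF1, -2.61 for PDE4B and -1.38 for CRTC2. For CCND2 the term was -1.48, for RBPJ -1.18, for FZD2 -1.09, for WNT5A -1.61 and for SF3B1 -1.25. The FMD CD24-low libraries were the shallowest of the 12 and had the highest leukocyte and fibroblast marker sums, and the part of either in the terms was not tested.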

How the results depend on the processing

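Of the 2163 genes called, 2086 were also called with reads of either strand, 2115 with RLE scaling, 1983 with library totals alone, 1919 without a filter, 2151 with DESeq2, 1864 with only the 6 FMD libraries and 1927 after thinning to the smallest total. The count itself was 4201 with the replicate block, 1021 with a minimum fold of 1.5, and 1321 or 1065 without both FMD libraries of number 1 or 2 (chosen after seeing the data). Leaving out 1 library gave 1504 to 2318. The genes higher in CD24-high numbered 481 with library totals alone, 1600 with the replicate block, 3 with the minimum fold, 74, 14 and 129 without both libraries of number 1, 2 or 3, and 68 to 326 with 1 library left out. The genes higher in CD24-low numbered 1018 with the minimum fold, 1247 and 1051 without both libraries of number 1 or 2, and 1436 to 2044 with 1 library left out. The interaction count was 1134 with DESeq2, 1702 with the replicate block, 307, 172 and 413 without both libraries of number 1, 2 or 3, and 380 to 767 with 1 library left out. The control comparison gave 0 calls by edgeR and DESeq2 in each alternative run. The log2 difference of CD24 ranged from -0.024 to 0.64 with 1 library left out and reversed without FMD CD24-high library 2, at -0.024. Of 150 called genes in the lists or named by rule, 70 of 125 higher in CD24-low and 2 of 25 higher in CD24-high kept their call in all alternatives that tested them. Depth limits genes with a few reads per group, whose ratios are known only within wide intervals.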
